A study of Mus musculus with 8 samples.

Results

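Isolated mouse kidney proximal tubules were compared between 72 h and 48 h after cisplatin, using the 4 libraries labelled with those times out of 8 in the series. The 72 h group held 2 libraries, 72a and 72b, and the 48 h group held 2 libraries, 48a and 48b. All were male C57BL/6 mice given cisplatin into the peritoneum at 30 mg/kg, and tubular cells were taken from renal cortex. The remaining 4 libraries, at 0 and 24 h, are used here to place levels in time and to estimate the spread. The 24 h group was given the same dose of 30 mg/kg, and no cisplatin dose is listed for the 0 h group. The labels describe no sort or purity check of the isolate, and they do not name the animals behind each duplicate. P-values therefore measure only how much these libraries vary, which may be technical. In such bulk RNA, fewer cells of a type and less RNA per cell cannot be told apart.

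Cisplatin is a platinum drug that forms DNA adducts and is concentrated in proximal tubule cells by organic cation uptake. The proximal tubule reabsorbs phosphate, glucose, amino acids and filtered protein through transporters and endocytic receptors of its brush border, and it runs mainly on fatty acid oxidation. Injured tubule cells are known to lose these functions, to display damage markers such as Kim-1 and, where they survive, to re-enter the cell cycle and deposit matrix.

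Linear RNA was read as FPKM, that is fragments scaled by gene length and by the mapped total, for each gene row. Libraries a and b summed to 351353 and 354145 FPKM at 72 h and to 314173 and 317983 FPKM at 48 h. Rows above 0 numbered 16717 and 16707 at 72 h, against 17704 and 17656 at 48 h. On log2(FPKM + 1), Pearson's r across rows was 0.992 between the 72 h libraries, 0.990 between the 48 h libraries and 0.955 to 0.959 between times (rows are not independent replicates). One listing needs care before any total is read: mt-Co1, a mitochondrially encoded cytochrome oxidase subunit, had 16677.5 and 17070.7 FPKM at 72 h but was listed at 0 in both 48 h libraries and in both 24 h libraries, against 19149.0 and 18119.7 FPKM at 0 h. No fold change is given for it, because an exact 0 in such a file can be a failed estimate.

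A level of 1 FPKM or more in 2 or more of all 8 libraries was reached by 10757 rows. Of these, limma called 5211 (48.4%) different at an adjusted p under 0.05, 3999 (37.2%) higher and 1212 (11.3%) lower at 72 h. The change was at least 2-fold on the log2(FPKM + 1) scale for 375 of the higher rows and 77 of the lower rows. The median row was itself 0.18 log2 higher at 72 h, so the direction of small changes depended on how libraries were scaled. With every library set to the same median the calls were 2224 higher and 2580 lower, with quantile normalisation 2426 and 2465, and with equal sums over rows that are not mitochondrially encoded 2908 and 1985. Rows called the same way under all 4 scalings, the deposited one included, numbered 2170 higher (20.2% of those tested) and 1206 lower (11.2%). The other 3 scalings all moved the median change down, to -0.03, -0.01 and 0.06 log2. A call of lower was therefore seldom open to loss (1206 of 1212 were kept). A count under all 4 scalings cannot exceed the deposited one. Gene groups whose balance of calls moved with the scaling are therefore given below with the counts under the other 3 scalings. Their order is equal medians, quantile normalisation and equal sums. The shares of all tested rows, 37.2% higher and 11.3% lower, apply beside the counts of every group below.

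**Figure D1:**
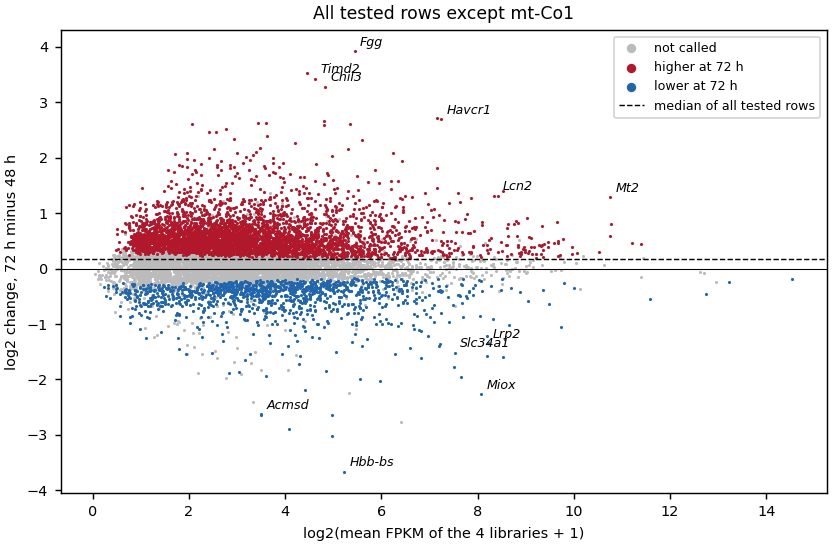
Log2 change at 72 h minus 48 h (y axis) against mean level (x axis, log2 of mean FPKM + 1) for every tested row except mt-Co1. 1 point is 1 row, red is called higher and blue called lower at 72 h, and the dashed line is the median of all tested rows (0.18). Havcr1, Fgg, Timd2 and Chil3 stand at the top and Hbb-bs, Acmsd and Miox at the bottom.

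The largest rise was that of Fgg, the gamma chain of fibrinogen, a clotting protein (chromosome 3, 83007724 to 83015057, mm10). Its FPKM was 79.9 and 81.2 at 72 h, against 4.18 and 4.58 at 48 h (log2 change 3.92 ± 0.20 SE, limma adjusted p = 1.06e-05). Havcr1, which encodes Kim-1, a phagocytic receptor displayed by injured tubule cells (chromosome 11, 46682647 to 46780361), had 259.6 and 262.4 FPKM at 72 h, against 32.9 and 47.2 at 48 h, means of 261 ± 2.01 and 40.04 ± 10.1 (SD, n = 2 each). Its change was 2.70 ± 0.14 on the log2 scale (adjusted p = 5.08e-06). The Havcr1 row overlaps that of its neighbour Timd2, a gene of the same Tim family, which had 46.2 and 42.2 FPKM at 72 h, against 3.06 and 3.35 at 48 h. Complement C3, the central protein of the complement cascade (chromosome 17, 57203966 to 57228136), had 47.4 and 46.7 FPKM at 72 h, against 6.22 and 6.92 at 48 h (log2 change 2.67 ± 0.13, adjusted p = 2.64e-06). Saa1, an acute-phase serum amyloid, had 5.88 and 6.54 FPKM at 72 h, against 0.12 and 0.25 at 48 h.

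The other rows among the 12 largest rises were Coq10b, a coenzyme Q binding protein, Arpc1b, a subunit of the actin-nucleating Arp2/3 complex, Cop1, a ubiquitin ligase, and 4 merged rows, which also span another protein-coding gene without a row of its own. These were Chil3 with Chil4 (macrophage chitinase-like proteins), S100a6 with S100a7a (calcium-binding proteins), Uxt with Elk1, and Eif2ak3 with 7 further genes. Its FPKM belong to all of its genes together. Chil3 had 48.8 and 52.0 FPKM at 72 h, against 4.19 and 4.39 at 48 h. S100a6 had 248 and 242 FPKM at 72 h, against 39.5 and 33.4 at 48 h.

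Among the falls, Miox, the myo-inositol oxygenase that starts inositol breakdown in the proximal tubule (chromosome 15, 89334305 to 89337015), had 93.3 and 90.6 FPKM at 72 h, against 439 and 452 at 48 h (log2 change -2.26 ± 0.08, adjusted p = 4.71e-07). Acmsd, a decarboxylase that diverts tryptophan breakdown away from NAD synthesis (chromosome 1, 127725179 to 127768053), had 2.10 and 2.19 FPKM at 72 h, against 19.5 and 17.6 at 48 h (log2 change -2.63 ± 0.08, adjusted p = 2.00e-07). Dnase1, a secreted nuclease, had 23.9 and 23.4 FPKM at 72 h, against 100.4 and 98.4 at 48 h. Slc7a13, an aspartate and glutamate transporter of the late proximal tubule, had 17.97 and 17.95 FPKM at 72 h, against 76.7 and 72.4 at 48 h. The remaining falls of this size were Spp2, a secreted phosphoprotein, Mep1b, the beta subunit of the brush border protease meprin, Hao2, a peroxisomal hydroxyacid oxidase, the merged rows Akr1c21 with Akr1c19, Cyp2d26 with Cyp2d12 and Ugt2a3 with Ugt2b37 and Ugt2b38, of the steroid and drug metabolism families, and 2 merged haemoglobin rows. The beta-globin row Hbb-bs (with Hbb-bt) had 4.79 and 4.18 FPKM at 72 h, against 71.4 and 65.6 at 48 h. The alpha-globin row Hba-x (with Hba-a1 and Hba-a2) varied more (4.14 and 1.504 FPKM at 72 h, against 14.9 and 43.4 at 48 h) and its adjusted p of 0.034 was 0.087 without library 48b, 0.065 without 72a and 0.14 without 72b.

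**Figure D2:**
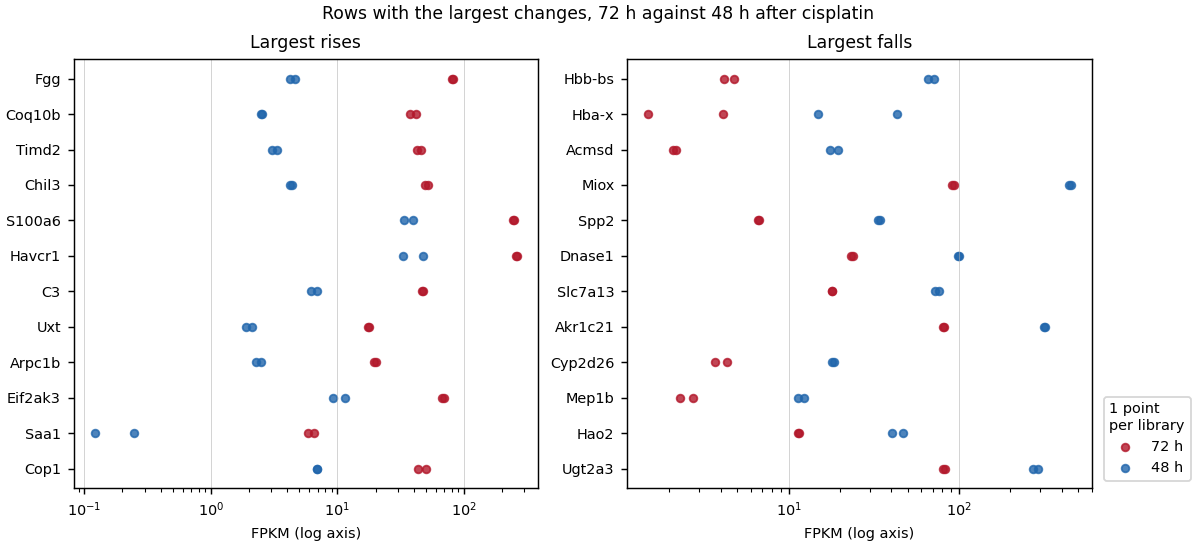
FPKM on a log axis for the 12 rows with the largest rises (left) and the 12 with the largest falls (right), 1 point per library, red for 72 h and blue for 48 h. Rows were chosen for non-overlapping libraries, so the colours are apart by choice. Fgg lies near 80 FPKM in both 72 h libraries and near 4 at 48 h. Hba-x at both times and Saa1 at 48 h, where it is far under 1 FPKM, show a wide spread within a time.

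Markers of tubular injury were higher at 72 h almost throughout. Of 23 tested members of the list, 22 were called higher and 0 lower (18 and 0 under all 4 scalings), with a median change of 0.99 log2, beside 0.18 over all tested rows. Lcn2 (merged with 1110008P14Rik), the iron-siderophore binding protein NGAL, had 479.9 and 491 FPKM at 72 h, against 193 and 197 at 48 h. Clu, the secreted chaperone clusterin, had 532 and 543 FPKM at 72 h, against 211 and 197 at 48 h (log2 change 1.40 ± 0.07, adjusted p = 2.89e-06). Anxa2, a membrane-binding annexin, had 268 and 282 FPKM at 72 h, against 108 and 105 at 48 h. Timp1, a metalloprotease inhibitor, Cd44, a hyaluronan receptor, Vim, a mesenchymal intermediate filament, and the epithelial keratin Krt19 were also called higher under every scaling. Sox4, a transcription factor, was the tested member that did not pass, at 6.15 and 6.37 FPKM at 72 h and 4.2998 and 4.9986 FPKM at 48 h (adjusted p = 0.094). Summed over the list, levels were 5627 and 5578 FPKM at 72 h, against 2733 and 2832 at 48 h.

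Genes of proximal tubule function moved in both directions, with falls in the majority. Among 34 tested transporters and endocytic genes 19 were lower and 8 higher (19 and 6 under all scalings), with a median of -0.42 log2. Slc34a1, the main phosphate transporter of the brush border (chromosome 13, 55398131 to 55414695), had 90.8 and 97.7 FPKM at 72 h, against 265 and 278 at 48 h (log2 change -1.52 ± 0.08, adjusted p = 5.08e-06). The endocytic receptor megalin, Lrp2, had 165 and 166 FPKM at 72 h, against 388 and 459 at 48 h (log2 change -1.34 ± 0.16, adjusted p = 0.000661), and its partner Cubn had 31.5 and 33.0 FPKM at 72 h, against 53.6 and 52.4 at 48 h. Slc22a2, the organic cation transporter OCT2 that takes up cisplatin, had 11.9 and 13.0 FPKM at 72 h, against 29.2 and 27.4 at 48 h. The urate transporter Slc22a12 had 77.5 and 86.4 FPKM at 72 h, against 219 and 207 at 48 h. These 5 genes lay lower in both 72 h libraries than in both 48 h libraries, as did 21.8% of all tested rows. Of the 34 tested members, 20 lay lower in this way and 9 lay higher.

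The 6 transporters that were higher under every scaling were Abcc4, Slc6a19, Slc5a1, Slc9a3, Slc7a8 and Slco4c1. Abcc4, an efflux pump for organic anions and cyclic nucleotides, had 17.7 and 17.0 FPKM at 72 h, against 6.31 and 6.74 at 48 h (log2 change 1.29, adjusted p = 9.76e-06). Slc6a19, a neutral amino acid transporter in a merged row that also holds Slc6a18, had 161 and 187 FPKM at 72 h, against 79.9 and 87.0 at 48 h. Slc1a1, a glutamate transporter, had 22.0 and 21.1 FPKM at 72 h and 20.9 and 22.9 FPKM at 48 h, and did not pass.

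Brush border and other proximal tubule enzymes were lower in 15 of 18 tested rows and higher in 0, the same 15 and 0 under all scalings, with a median of -0.85 log2. Since 1206 of all 1212 lower rows kept their call under all scalings, that count is no separate support. Ggt1, which breaks down glutathione at the brush border, had 70.0 and 70.6 FPKM at 72 h, against 159 and 150.2 at 48 h (log2 change -1.12 ± 0.07, adjusted p = 7.80e-06). Fut9, a fucosyltransferase, had 17.2 and 15.6 FPKM at 72 h, against 43.6 and 53.3 at 48 h. Kap, an androgen-regulated kidney protein and the most abundant member, had 7479 and 7195 FPKM at 72 h and 7986 and 9299.9 FPKM at 48 h, and did not pass (adjusted p = 0.080). All 18 tested members lay lower in both 72 h libraries than in both 48 h libraries. Of all tested rows 21.8% lay lower in this way, 56.0% higher, and 77.7% had non-overlapping libraries in either direction.

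Transcription factors of the proximal tubule moved in both directions. Of 13 tested, 7 were higher and 1 lower (3, 4 and 5 higher and 3, 3 and 3 lower under the other scalings, 4 higher without library 72a and 2 lower without library 48a). Pax8, a kidney lineage factor, had 37.5 and 33.5 FPKM at 72 h, against 15.6 and 15.4 at 48 h (log2 change 1.14 ± 0.08, adjusted p = 1.58e-05). Ppara, the receptor that drives fatty acid oxidation genes, had 11.99 and 13.5 FPKM at 72 h, against 4.18 and 5.54 at 48 h. Klf15, a metabolic regulator, had 4.40 and 4.40 FPKM at 72 h, against 2.78 and 2.63 at 48 h. Both 72 h libraries were above both 48 h libraries for these 3 factors, as for 56.0% of all tested rows. Of the 13 tested factors, 9 lay higher in this way and 2 lay lower.

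**Figure D3:**
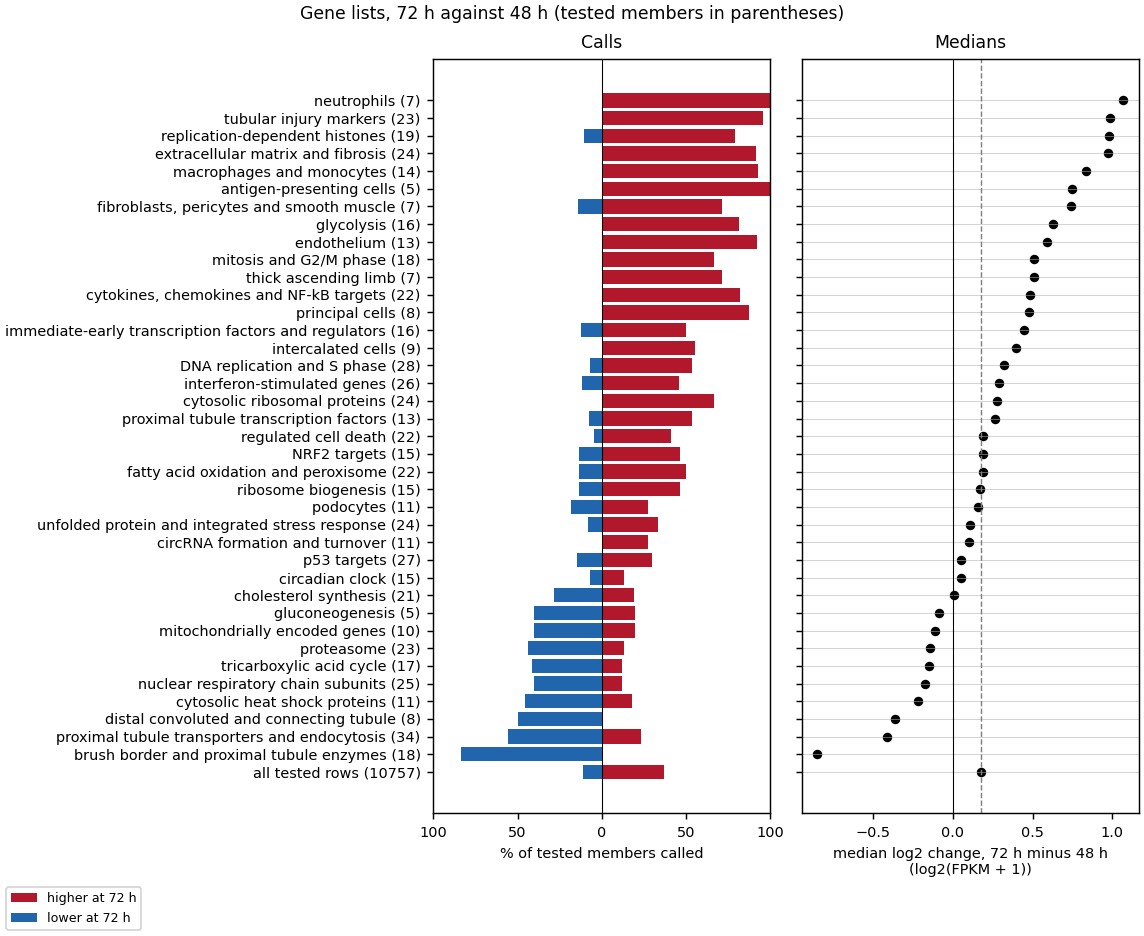
Left, share of tested members called higher (red, to the right) or lower (blue, to the left) at 72 h for each gene list with at least 5 tested members. Right, the median log2 change of the list. The bottom line is all tested rows, and the dashed line marks their median (0.18). Neutrophil, injury, histone and matrix lists have the highest medians and brush border enzymes the lowest (-0.85).

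Energy metabolism split by pathway. Glycolysis genes were higher in 13 of 16 tested rows and lower in 0 (10, 12 and 11 higher and 1, 1 and 1 lower under the other scalings), with a median of 0.63 log2. Slc2a1, the glucose transporter GLUT1, had 37.7 and 41.8 FPKM at 72 h, against 16.8 and 15.2 at 48 h (log2 change 1.26 ± 0.08, adjusted p = 1.18e-05). Hk2, an inducible hexokinase, had 3.09 and 2.96 FPKM at 72 h, against 1.14 and 1.03 at 48 h. Ldha, which makes lactate, had 223 and 236 FPKM at 72 h, against 145 and 145 at 48 h. Pfkm, a phosphofructokinase, did not pass, at 3.46 and 4.10 FPKM at 72 h and 4.15 and 3.37 FPKM at 48 h.

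Tricarboxylic acid cycle genes were lower in 7 of 17 and higher in 2 (0, 1 and 0 higher and 14, 11 and 13 lower under the other scalings, 1 higher without library 72b), with a median of -0.15 log2. Suclg2, the GTP-linked subunit of succinyl-CoA synthetase, had 51.0 and 51.1 FPKM at 72 h, against 80.4 and 83.7 at 48 h (log2 change -0.67 ± 0.06, adjusted p = 8.13e-05). Nuclear respiratory chain subunits were lower in 10 of 25 and higher in 3 (1, 2 and 1 higher and 17, 15 and 16 lower under the other scalings). In the deposited scaling 5, 5 and 4 were lower without library 48a, 48b or 72b. Cox6c, a cytochrome oxidase subunit, had 543 and 575 FPKM at 72 h, against 877 and 858 at 48 h (log2 change -0.63 ± 0.06, adjusted p = 0.000106).

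Fatty acid oxidation gave 11 higher and 3 lower of 22, with 1, 4 and 3 higher and 6, 4 and 4 lower under the other scalings and, in the deposited scaling, 7, 4 and 6 higher without library 48b, 72a or 72b. Its median was 0.19 log2, beside 0.18 over all rows. Acadm, the medium-chain acyl-CoA dehydrogenase, had 82.8 and 91.6 FPKM at 72 h, against 152 and 142 at 48 h (log2 change -0.75 ± 0.07, adjusted p = 9.04e-05). Cpt1a (merged with Tesmin), which admits fatty acids to the mitochondrion, had 65.6 and 67.5 FPKM at 72 h, against 45.8 and 45.3 at 48 h. In gluconeogenesis 2 of 5 genes were lower and 1 higher (0, 1 and 0 higher and 3, 3 and 3 lower under the other scalings, 0 higher when any library was left out and 1 lower without 48a). G6pc, which releases free glucose, had 10.6 and 10.2 FPKM at 72 h, against 15.1 and 16.6 at 48 h (log2 change -0.56 ± 0.07, adjusted p = 0.00029). Cholesterol synthesis held 6 lower and 4 higher of 21 (3, 2 and 3 higher and 8, 9 and 8 lower under the other scalings). Insig1, a sterol sensor, had 12.6 and 13.9 FPKM at 72 h, against 24.7 and 23.9 at 48 h.

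Of 10 tested mitochondrially encoded rows 4 were lower and 2 higher (1, 1 and 1 higher and 7, 4 and 7 lower under the other scalings), 1 of the higher being the mt-Co1 listing described above. mt-Nd3, a complex I subunit, had 5920 and 5645 FPKM at 72 h, against 8218 and 7627 at 48 h (log2 change -0.45 ± 0.07, adjusted p = 0.00125). The number lower was 2 without library 48b, 72a or 72b, and the number higher was 1 without 48a, 48b or 72b. Mitochondrially encoded rows held 21.6% and 21.7% of all FPKM at 72 h, against 20.8% and 21.8% at 48 h. With mt-Co1 taken out of their sum, but left in the total of all FPKM, they held 16.9% and 16.9% at 72 h. The 48 h shares stayed at 20.8% and 21.8%, since mt-Co1 was listed at 0 there. The total at 72 h thus still holds mt-Co1 and that at 48 h does not, so these shares have unlike bases.

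Extracellular matrix genes were higher in 22 of 24 tested rows and lower in 0 (22 and 0 under all scalings), with a median of 0.97 log2. Ccn2, the connective tissue growth factor, had 60.5 and 65.9 FPKM at 72 h, against 16.2 and 10.9 at 48 h (log2 change 2.16, adjusted p = 2.82e-05). The basement membrane collagen Col4a1 had 264 and 289 FPKM at 72 h, against 124 and 115 at 48 h. The fibrillar collagen Col1a1 had 42.0 and 42.5 FPKM at 72 h, against 22.6 and 22.5 at 48 h. Lox, a collagen cross-linking enzyme, did not pass: it had 0.47 and 1.03 FPKM at 72 h and 6.80 and 0.51 FPKM at 48 h, and without library 48b 1 matrix gene was called lower.

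Cytokines, chemokines and NF-kB targets were higher in 18 of 22 tested rows and lower in 0 (12 and 0 under all scalings), with a median of 0.48 log2. Besides C3, Csf1, the macrophage growth factor, had 12.3 and 10.5 FPKM at 72 h, against 4.14 and 4.45 at 48 h (log2 change 1.22 ± 0.10, adjusted p = 3.38e-05). Cxcl2, a neutrophil chemokine, had 8.73 and 9.17 FPKM at 72 h, against 3.98 and 4.26 at 48 h. The interleukin Il1b had 20.6 and 19.4 FPKM at 72 h, against 8.41 and 8.78 at 48 h. Cxcl1, Cxcl10, Ccl20 and Il6 did not pass. Cxcl1 had 2.95 and 4.90 FPKM at 72 h and 7.96 and 3.75 FPKM at 48 h, so its libraries overlapped. Of 26 interferon-stimulated genes 12 were higher and 3 lower (6, 6 and 7 higher and 6, 7 and 5 lower under the other scalings), with 6 and 7 higher without library 72a or 72b and 5 lower without 48a. The median of the interferon list was 0.29 log2, beside 0.18 over all tested rows. Isg15, a ubiquitin-like interferon product, had 3.57 and 3.71 FPKM at 72 h, against 1.87 and 1.63 at 48 h.

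Cell cycle genes were low in level and mostly higher at 72 h than at 48 h. Summed over the 34 mitosis and G2/M rows, levels were 124 and 129 FPKM at 72 h and 83.8 and 76.4 FPKM at 48 h. The sums at 0 h were 129 and 135 FPKM, so the 72 h sums were not above those of the group with no cisplatin dose listed. Of the 34 mitosis and G2/M rows 18 passed the filter on low values, and 12 of these were called higher and 0 lower (10 and 0 under all scalings). Only 5 of the 34 had at least 1 FPKM in all 4 libraries. The filter counted all 8 libraries, so the other rows could pass through their level at 72 h or at 0 h. Passing through the 72 h level favours rows that are higher there. With no members dropped, 30 of the 34 lay higher in both 72 h libraries than in both 48 h libraries and 1 lay lower, beside 35.0% and 18.5% of all 21874 rows. Those shares are low for comparison, because they count rows at 0, which cannot separate, and no mitosis row was at 0 in all 4 libraries. Among tested rows 17 of the 18 members lay higher and 0 lower, beside 56.0% and 21.8%. A filter of 5 FPKM left 1 mitosis gene called. Cdk1, the kinase that starts mitosis (chromosome 10, 69336535 to 69352938), had 4.40 and 3.85 FPKM at 72 h, against 1.21 and 1.15 at 48 h (log2 change 1.23 ± 0.14, adjusted p = 0.000179). Top2a, the topoisomerase that untangles sister chromosomes (chromosome 11, 98992943 to 99024189), had 2.52 and 2.23 FPKM at 72 h, against 0.80 and 0.79 at 48 h (log2 change 0.91 ± 0.10, adjusted p = 0.000207). Mki67, a proliferation marker, had 1.04 and 1.12 FPKM at 72 h, against 0.56 and 0.69 at 48 h, and its call (adjusted p = 0.018) was lost with equal medians, with quantile normalisation and when 48a, 72a or 72b was left out.

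Promoters of mitotic genes are known for the cell cycle homology region and CCAAT boxes, and those of Cdk1 and Top2a are shown as members of the list whose values stand above. The sequences are RefSeq promoters on GRCm38.p6, from 250 bases before to 50 bases after the gene start, printed 5′ to 3′ on the gene's strand (minus for both). Cdk1 lies at chr10:69352863-69353162 and Top2a at chr11:99024140-99024439. Capitals mark matches to TTTGAA, to TTCGAA (which reads the same on both strands) and to CCAAT, searched on both strands and not overlapping, so reverse complements are in capitals too.
Cdk1: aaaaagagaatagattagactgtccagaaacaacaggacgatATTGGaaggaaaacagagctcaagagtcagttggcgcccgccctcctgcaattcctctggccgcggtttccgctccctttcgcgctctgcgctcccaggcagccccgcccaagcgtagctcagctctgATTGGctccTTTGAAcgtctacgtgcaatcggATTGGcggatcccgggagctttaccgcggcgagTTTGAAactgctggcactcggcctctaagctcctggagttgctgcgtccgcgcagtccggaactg
Top2a: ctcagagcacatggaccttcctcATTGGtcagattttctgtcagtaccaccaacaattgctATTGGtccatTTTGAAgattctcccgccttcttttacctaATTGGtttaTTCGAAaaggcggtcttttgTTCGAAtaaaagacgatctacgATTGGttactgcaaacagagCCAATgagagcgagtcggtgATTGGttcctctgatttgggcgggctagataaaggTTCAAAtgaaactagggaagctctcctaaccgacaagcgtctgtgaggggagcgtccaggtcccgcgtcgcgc
The Cdk1 promoter held 2 TTTGAA and 3 CCAAT matches, and the Top2a promoter 2 TTTGAA, 2 TTCGAA and 6 CCAAT matches. Of 29 list members with a promoter sequence, 25 (86.2%) held TTTGAA or TTCGAA, 25 (86.2%) held CCAAT and 23 (79.3%) held both. Over all 27025 promoters of the same length the shares were 19.4%, 37.9% and 7.70%. A match describes letters in this window, not a bound site.

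DNA replication genes were higher in 15 of 28 tested rows and lower in 2 (9, 9 and 13 higher and 3, 3 and 3 lower under the other scalings, 1 lower without library 48b or 72a), with a median of 0.32 log2. Uhrf1, which copies DNA methylation onto new strands, had 4.40 and 4.38 FPKM at 72 h, against 1.26 and 1.33 at 48 h (log2 change 1.23 ± 0.10, adjusted p = 2.58e-05). Rrm1, a ribonucleotide reductase subunit, had 7.92 and 8.81 FPKM at 72 h, against 5.20 and 4.81 at 48 h. Sums over the replication list were 140 and 141 FPKM at 72 h, 113 and 113 FPKM at 48 h and 161 and 170 FPKM at 0 h. Histone gene rows, which overlap in clusters, gave 15 higher and 2 lower of 19 (12 and 2 under all scalings, 1 lower when any of the 4 libraries was left out), with a median of 0.98 log2. Hist1h1c, a linker histone, had 343 and 352 FPKM at 72 h, against 198 and 188 at 48 h. Sums over the histone rows were 894 and 888 FPKM at 72 h, 514 and 496 FPKM at 48 h and 1098 and 1135 FPKM at 0 h.

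The DNA damage checkpoint genes that cisplatin is known to induce through p53 did not move together. Cdkn1a, the p21 cell cycle inhibitor, had 92.6 and 102.2 FPKM at 72 h and 93.9 and 89.9 FPKM at 48 h, with overlapping libraries (log2 change 0.08 ± 0.10, adjusted p = 0.51). Of 27 p53 targets 8 were higher and 4 lower (4, 4 and 5 higher and 9, 7 and 8 lower under the other scalings; 5, 5 and 4 higher without library 48a, 72a or 72b), with a median of 0.05 log2. Gdf15, a stress cytokine, had 42.5 and 42.4 FPKM at 72 h, against 17.3 and 16.6 at 48 h (log2 change 1.27 ± 0.12, adjusted p = 8.53e-05). Trp53inp1, a p53 cofactor, had 72.6 and 70.9 FPKM at 72 h, against 109 and 112 at 48 h. Pmaip1, the proapoptotic protein Noxa, had 23.5 and 22.6 FPKM at 72 h, against 39.5 and 38.0 at 48 h. Among cell death regulators 9 of 22 were higher and 1 lower (6, 6 and 9 higher and 3, 3 and 2 lower under the other scalings, 0 lower without library 48b, 72a or 72b). The median of the cell death list was 0.19 log2, beside 0.18 over all tested rows, of which 37.2% were called higher and 11.3% lower. Bcl2l1, which encodes antiapoptotic Bcl-xL, had 51.7 and 56.5 FPKM at 72 h, against 20.8 and 22.5 at 48 h (log2 change 1.28 ± 0.08, adjusted p = 9.14e-06). Acsl4, a lipid enzyme tied to ferroptosis, had 45.3 and 44.1 FPKM at 72 h, against 19.6 and 20.8 at 48 h.

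Of 16 immediate-early factors 8 were higher and 2 lower (7, 7 and 8 higher and 5, 5 and 4 lower under the other scalings), with a median of 0.44 log2. Nr4a1, a nuclear receptor, had 6.32 and 6.88 FPKM at 72 h, against 3.49 and 3.03 at 48 h. The stress factor Atf3 had 15.2 and 16.5 FPKM at 72 h, against 24.1 and 22.5 at 48 h. Heat shock genes were lower in 5 of 11 and higher in 2 (0, 1 and 1 higher and 7, 5 and 6 lower under the other scalings; 3 lower without library 48a, 48b or 72b, and 0, 1 and 0 higher without 48a, 72a or 72b). Hspd1, the mitochondrial chaperonin, had 83.0 and 80.4 FPKM at 72 h, against 122 and 130.1 at 48 h. Of 24 unfolded protein and integrated stress response genes 8 were higher and 2 lower (4, 4 and 4 higher and 9, 5 and 7 lower under the other scalings, 4 or 5 higher and 0 or 1 lower when a library was left out). Psat1, an enzyme of serine synthesis, had 24.4 and 27.9 FPKM at 72 h, against 9.11 and 9.03 at 48 h (log2 change 1.43 ± 0.10, adjusted p = 1.81e-05). Phgdh, the enzyme before it, had 2.92 and 3.56 FPKM at 72 h, against 1.103 and 0.712 at 48 h.

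The metallothioneins, small proteins that bind zinc, copper and platinum, were higher at 72 h. Mt1 had 428 and 490 FPKM at 72 h, against 178 and 190 at 48 h (log2 change 1.31 ± 0.08, adjusted p = 7.80e-06). Mt2 had 2472 and 2423 FPKM at 72 h, against 1006 and 998 at 48 h (log2 change 1.29 ± 0.12, adjusted p = 7.92e-05). At 0 h they had 26.8 and 26.8 FPKM (Mt1) and 55.8 and 50.9 FPKM (Mt2). Their promoters are shown because metallothionein genes are known to be induced by metals through metal response elements. Capitals mark the core of this element, searched on both strands as TGCACNC or as TGCGCNC, a search chosen after the values were seen. They lie on the plus strand, Mt1 at chr8:94178839-94179138 and Mt2 at chr8:94172368-94172667 (RefSeq, GRCm38.p6).
Mt1: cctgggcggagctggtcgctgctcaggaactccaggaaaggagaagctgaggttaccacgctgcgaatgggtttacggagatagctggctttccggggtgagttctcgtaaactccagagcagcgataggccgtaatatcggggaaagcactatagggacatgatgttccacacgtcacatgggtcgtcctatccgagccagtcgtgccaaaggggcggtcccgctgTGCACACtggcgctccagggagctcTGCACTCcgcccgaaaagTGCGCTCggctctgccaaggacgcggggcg
Mt2: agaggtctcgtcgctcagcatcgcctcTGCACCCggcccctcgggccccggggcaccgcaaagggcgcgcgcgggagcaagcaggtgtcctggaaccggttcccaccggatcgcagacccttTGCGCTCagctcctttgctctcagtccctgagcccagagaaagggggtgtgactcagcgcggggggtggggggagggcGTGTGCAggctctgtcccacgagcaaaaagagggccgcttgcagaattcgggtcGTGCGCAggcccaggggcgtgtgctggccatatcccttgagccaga
The Mt1 promoter held 3 matches and the Mt2 promoter 4, and 540 of all 27025 promoters (2.0%) held at least 3. Genes of oxidative stress had a median change of 0.19 log2 over 15 tested rows, beside 0.18 over all tested rows. NRF2 targets, the oxidative stress genes, gave 7 higher and 2 lower of 15 (3, 4 and 4 higher and 4, 5 and 4 lower under the other scalings, 4 higher without library 72b), and Gclc, the rate-limiting enzyme of glutathione synthesis, had 111 and 115 FPKM at 72 h, against 60.7 and 72.2 at 48 h.

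Cytosolic ribosomal protein genes were higher in 16 of 24 rows and lower in 0 (5, 5 and 7 higher and 1, 1 and 1 lower under the other scalings, 9 higher without library 48b or 72b), with a median of 0.27 log2. Proteasome genes were lower in 10 of 23 and higher in 3 (0, 0 and 0 higher and 15, 14 and 15 lower under the other scalings; 0, 1 and 0 higher without library 48a, 48b or 72b), with a median of -0.14 log2. Psmd2, a subunit of the regulatory cap, had 53.8 and 56.1 FPKM at 72 h, against 77.9 and 76.1 at 48 h (log2 change -0.48 ± 0.06, adjusted p = 0.000376). Ribosome biogenesis genes gave 7 higher and 2 lower of 15 (4, 4 and 4 higher and 4, 4 and 3 lower under the other scalings, 4 higher without library 48b or 72b, 1 lower without 48b, 72a or 72b). Clock genes gave 2 higher and 1 lower of 15 (0, 0 and 0 higher and 4, 4 and 2 lower under the other scalings), with 0 higher without library 48b or 72b and 1 without 72a.

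Markers of other cells were measured in the same libraries, and their part in the changes above was not tested. Neutrophil markers were higher in 7 of 7 tested rows (7 under all scalings). The list has 9 rows, of which 4 had at least 1 FPKM in all 4 libraries, so the filter favoured rows high at 72 h, and without it 8 of 9 were called. Their median was 1.07 log2, with sums of 79.4 and 77.0 FPKM at 72 h, against 27.2 and 32.8 at 48 h. S100a8, a neutrophil alarmin, had 32.8 and 30.9 FPKM at 72 h, against 11.1 and 14.2 at 48 h. For macrophages and monocytes 13 of 14 markers were higher, 10 of them under all scalings, with sums of 1076 and 1091 FPKM at 72 h, against 719.9 and 704 at 48 h. Most of that sum was the merged Ly6c2 row (800.3 and 802 FPKM at 72 h, 621 and 605 at 48 h). Of the 14 tested rows 3 were merged. When only rows that keep to their own gene were tested, 6 of the list remained and 5 were higher. Lyz2, a lysozyme of myeloid cells, had 78.9 and 79.5 FPKM at 72 h, against 15.5 and 14.5 at 48 h (log2 change 2.33 ± 0.13, adjusted p = 6.76e-06). Ccr2, the monocyte chemokine receptor, had 6.04 and 5.88 FPKM at 72 h, against 1.98 and 1.23 at 48 h. Antigen presentation genes were higher in 5 of 5 tested rows (5 under all scalings), and without the filter in 5 of 8. Red cell markers were lower in 2 of 2 tested rows (2 under all scalings), and in 1 when any library was left out. T and NK cell markers were near 0, with sums over 13 rows of 3.63 and 4.03 FPKM at 72 h, against 2.87 and 2.84 at 48 h, and only Gzma was tested (adjusted p = 0.93). Of 2 tested B and plasma cell rows 2 were higher (1 under all scalings). Jchain was higher at 1.28 and 1.46 FPKM at 72 h, against 0.59 and 0.52 at 48 h. The other, Cd79a, is a merged row over many genes whose call was lost without any 1 of the 4 libraries.

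Of 13 endothelial markers 12 were higher and 0 lower (10 and 0 under all scalings), with sums of 255 and 262 FPKM at 72 h, against 162 and 145 at 48 h. Flt1, a VEGF receptor, had 29.3 and 30.1 FPKM at 72 h, against 13.4 and 12.3 at 48 h (log2 change 1.14 ± 0.08, adjusted p = 2.05e-05). Of 7 fibroblast and pericyte markers 5 were higher and 1 lower (5, 5 and 5 higher and 2, 2 and 1 lower under the other scalings). Acta2, smooth muscle actin, had 24.9 and 23.8 FPKM at 72 h, against 9.03 and 8.04 at 48 h. Rgs5, a pericyte marker, had 9.34 and 9.28 FPKM at 72 h, against 12.7 and 13.1 at 48 h. Later tubule segments differed in direction. Thick ascending limb markers were higher in 5 of 7 (4, 4 and 4 higher and 1, 1 and 1 lower under the other scalings, 1 lower without library 48b), principal cell markers in 7 of 8 (4 under all scalings) and intercalated cell markers in 5 of 9 (4 under all scalings). Distal convoluted tubule markers were lower in 4 of 8 and higher in 0 (0, 0 and 0 higher and 5, 5 and 5 lower under the other scalings, with 2 lower without library 72b). Kl, the Klotho co-receptor of distal tubules, had 14.8 and 17.4 FPKM at 72 h, against 33.6 and 32.9 at 48 h. Aqp2, the principal cell water channel, had 91.2 and 102.1 FPKM at 72 h, against 62.4 and 55.8 at 48 h. Podocyte markers gave 3 higher and 2 lower of 11 (1, 1 and 1 higher and 3, 3 and 2 lower under the other scalings, with 1 higher without library 72a and 0 or 1 lower when any library was left out). Umod, the defining marker of the thick ascending limb, has no row of its own.

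Over the whole time course the leading genes followed different paths. Havcr1 averaged 0.297, 2.497, 40.04 and 261 FPKM at 0, 24, 48 and 72 h, and Slc34a1 had 1396 and 1483 FPKM at 0 h and 616 and 529 FPKM a day later, falling further to the 48 h and 72 h values above. Cdkn1a had 1.34 and 1.67 FPKM at 0 h. It had 57.0 and 49.6 FPKM at 24 h, below its levels at both later times. Coq10b started at 25.3 and 27.4 FPKM (0 h). It was low at 24 h (3.496 and 3.503 FPKM) and at 48 h (2.52 and 2.49 FPKM). The 72 h libraries had 37.3 and 41.8 FPKM.

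**Figure D4:**
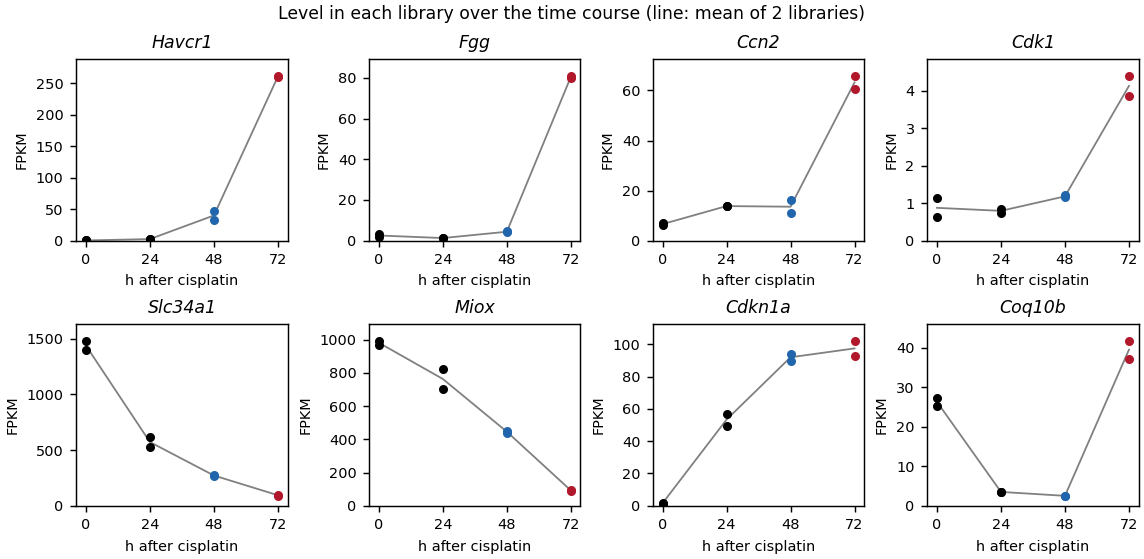
FPKM (y axis, linear from 0) at 0, 24, 48 and 72 h after cisplatin for 8 genes, with no cisplatin dose listed for 0 h. Points are libraries (blue 48 h, red 72 h, black other times) and the line joins means of 2 libraries. Havcr1, Fgg, Ccn2 and Cdk1 have their highest values at 72 h, Slc34a1 and Miox their lowest, Cdkn1a is level between 48 and 72 h, and Coq10b is low at 24 and 48 h.

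Circular RNAs, closed loops formed when a downstream splice site joins an upstream one, were counted by their back-splice junctions. Totals were 16318 and 15455 junction counts at 72 h, against 21024 and 17048 at 48 h. Of 1574 circRNAs tested with edgeR, 16 (1.02%) were called at an adjusted p under 0.05, 15 lower and 1 higher at 72 h, and the median change was 0.04 log2. At an unadjusted p under 0.05 there were 122, 49 higher and 73 lower. The DESeq2 test called 11 lower and 0 higher, and gave no adjusted p for 3 of the 16. The median tested circRNA had a mean of 4.5 counts per library, and 428 of 1574 had a mean of at least 10.

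The strongest call was a circRNA of Arhgap5, a GTPase-activating protein (chromosome 12, 52516079 to 52519967, mm10). It had 12 and 18 counts at 72 h, against 116 and 107 at 48 h (log2 change -2.70, adjusted p = 5.42e-18), and 133 and 152 at 24 h and 20 and 25 at 0 h. A second Arhgap5 circle that shares its start (end 52542636) had 5 and 5 counts at 72 h, against 26 and 26 at 48 h. The call of this second circle was lost when any library at 48 or 72 h was left out. The Arhgap5 row itself, merged with Nubpl, had 29.0 and 27.8 FPKM at 72 h, against 45.3 and 44.2 at 48 h (log2 change -0.64, adjusted p = 0.000573). The most abundant called circle came from Slc8a1, the sodium-calcium exchanger (chromosome 17, 81647809 to 81649638). It had 378 and 373 counts at 72 h, against 863 and 819 at 48 h (log2 change -0.99, adjusted p = 2.55e-12), a ratio of normalised sums of 0.507 with an exact 95% interval for counting error only of 0.465 to 0.553.

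The Slc8a1 row moved the other way, at 11.5 and 16.1 FPKM at 72 h, against 7.34 and 7.39 at 48 h (log2 change 0.80, adjusted p = 0.00115). Set against its row in each library, the Slc8a1 circle fell by 1.79 on the log2 scale (limma adjusted p = 0.000174). It was the only circRNA of 1212 tested in this way that passed (0.0825%), and it passed with any 1 of the 4 libraries left out. The Arhgap5 circle fell by 2.02 relative to its row and did not pass (limma adjusted p = 0.43). The median change of all 1212 relative to their rows was itself -0.19 log2, and this shift is not taken off either value.

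Called back-splices between neighbouring genes were also lower at 72 h. A junction on chromosome 4 (96583977 to 96658752) that spans Cyp2j9 and Cyp2j5, epoxygenases of arachidonic acid, had 25 and 31 counts at 72 h, against 111 and 110 at 48 h. Its counts were 201 and 182 at 24 h and 265 and 407 at 0 h. A junction on chromosome 15 (9311749 to 9365377) between Ugt3a1 and Ugt3a2, sugar transferases, had 62 and 69 counts at 72 h, against 172 and 146 at 48 h. This junction had 276 and 305 counts at 24 h and 595 and 748 at 0 h. A pair of circles of Tcf20, a transcriptional co-regulator, share an end at 82857284 on chromosome 15. The shorter had 44 and 41 counts at 72 h, against 114 and 123 at 48 h. The longer had 40 and 44 counts at 72 h, against 101 and 87 at 48 h, and its call was lost when any of these libraries was left out. Aass, a lysine-degrading enzyme, gave a circle with 155 and 139 counts at 72 h, against 296 and 226 at 48 h. Its call was lost without library 48a, 48b or 72b. The other calls that were lower came from Stk39, Kansl1l, Mtus1, Smad4, Zzz3, Nr1h4 and an unplaced scaffold. Several of the 16 share a junction end or a host, so they are not independent.

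The only circRNA called higher was one of Lrmda (chromosome 14, 22577848 to 22596542), a melanocyte differentiation gene, with 6 and 9 counts at 72 h, against 1 and 0 at 48 h (adjusted p = 0.047). Its ratio of normalised sums was 17.0 with a counting interval of 2.62 to 717.0, and at 24 and 0 h it had 12 and 6 and 9 and 8 counts. The DESeq2 test gave it no adjusted p, and its call was lost without the filter, in a fit of the 4 libraries at 48 and 72 h alone, and without any 1 of these libraries. Among the 5 most abundant circles, that of Gigyf2, a translational regulator, had 229 and 231 counts at 72 h and 294 and 223 at 48 h (log2 change 0.02, adjusted p = 0.98), and a pair from Rasa2, a Ras GTPase-activating protein, changed by 0.01 and -0.18 log2 and did not pass. Leaving out 48a, 48b, 72a or 72b left 6, 9, 11 and 5 circRNAs called, and all 16 kept their direction.

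**Figure D5:**
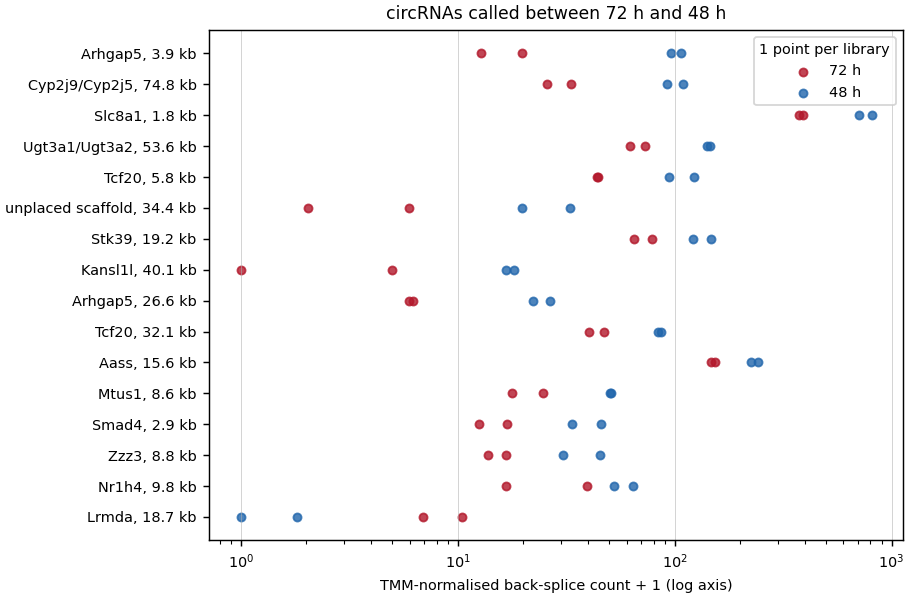
TMM-normalised back-splice count + 1 on a log axis for the 16 circRNAs called between 72 h and 48 h, 1 point per library, red for 72 h and blue for 48 h, labelled by host gene and span. The 72 h libraries lie left of the 48 h libraries for 15 of them and right of them for Lrmda, the bottom line.

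Across hosts, circRNA changes were set beside the call of the host row as a description. The median circRNA change was 0.18 log2 for 394 circRNAs whose host row was called higher (median host change 0.47), -0.33 for 73 whose host row was lower (median host change -0.41) and -0.05 for 745 whose host row was not called (median host change 0.08). Of the genes known to form or clear circRNAs, 3 of 11 were higher and 0 lower (2, 3 and 3 higher and 3, 3 and 3 lower under the other scalings, 1 lower without library 72a). Mbnl1, a splicing factor whose own transcript yields a circle, had 37.8 and 38.3 FPKM at 72 h, against 25.7 and 24.9 at 48 h. Qk, which promotes circle formation, had 27.3 and 28.8 FPKM at 72 h, against 20.3 and 21.5 at 48 h.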

How the data were processed

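Linear RNA values were FPKM made by the authors, named so per the file headers, for 21874 gene rows in 8 libraries. The circRNA table held whole-number back-splice counts deposited by the authors. Per the submitters' processing notes the tools were TopHat2, Cufflinks and Bowtie 0.12.2, on build mm10. Neither the circRNA caller nor the use of strand in counting is stated (not given in the sources used here). A kit for small RNA is named per the labels' protocols. Columns are lettered and the labels' replicates are numbered, so a column was assigned to its time only; 8 further columns were not used. FPKM do not give depth, so counting intervals are unknown for linear RNA.

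Rows were tested with limma 3.58.1 (trend, robust; R 4.3.3) on log2(FPKM + 1), which understates changes of low rows, in 1 fit of 8 libraries; circRNAs above 0 in at least 4 libraries (1574 of 2163) with edgeR 4.0.16 (quasi-likelihood, TMM, robust), and with DESeq2 1.42.0 as an alternative. Tests were 2-sided with Benjamini-Hochberg adjustment and a threshold of 0.05. Scripts were tested on simulated data. Rows were set against RefSeq spans with a tolerance of 2000 bases, and 55.2% of tested rows overlap another row. Differences between 72 h duplicates and between 48 h duplicates exceeded sampling noise in circRNA counts (chi-square over degrees of freedom 1.39 and 1.52), so each counted as 1 library.

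Named genes were the 12 largest rises and falls among called rows with non-overlapping libraries, no library at 0 and a proper symbol, up to 4 members of each list by smallest p, and a fixed set of names; other list members were named after their values were seen. The comparison, members and lists were chosen with earlier results of these data known. Alternatives were other scalings, pseudocounts, filters and fits, and leaving out each library.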

Additional observations from a re-analysis of the deposited data

How the results depend on the processing

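Of 5211 linear calls (3999 higher, 1212 lower), equal medians gave 2224 higher and 2580 lower, quantile normalisation 2426 and 2465, and equal sums outside mitochondrially encoded rows 1985 lower. Restricting the test to rows that keep to their own gene, fewer rows by construction, left 3211 calls (2606 higher, 605 lower). Leaving out 1 library gave 3686 to 4067 calls, 2886 to 3213 higher and 800 to 854 lower. For circRNAs (16 called, 1 higher, 15 lower), the DESeq2 test (no adjusted p for Lrmda) and the lack of a filter each gave 0 higher, and leaving out 1 library gave 5 to 11 called, 0 higher and 5 to 11 lower; the cause was not tested. With 1 library left out, the lone library was assumed to vary like the other groups. The circRNA set against its host row kept its 1 call in every alternative run. Leaving out mt-Co1, or the 7 rows that stood apart between 0 and 72 h and 24 and 48 h, both chosen after seeing the data, gave 5210 and 5204 linear calls. Of 174 calls of named genes, 8 to 13 were lost when 1 library was left out. No paired analysis was possible because the columns carry letters and not the labels' replicate numbers. FPKM at or under 1, as in most mitotic genes, limit what can be shown.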

Other observations

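Rows in which every 0 h and 72 h library was at least 4-fold above every 24 h and 48 h library, on FPKM + 1, numbered 6. Of these, mt-Co1 is listed at exactly 0 at 24 and 48 h, which can be a failed estimate, so it is not read as low there. The other 5 were Coq10b, Timd2, Uxt (merged with Elk1), Adcy6 and Gnaq. Adcy6, an adenylyl cyclase that makes cyclic AMP, had 15.6 and 16.1 FPKM (0 h), 1.72 and 1.69 FPKM (24 h), 1.05 and 0.965 FPKM (48 h) and 10.4 and 10.7 FPKM (72 h). Gnaq, a G protein alpha subunit that activates phospholipase C, had 9.40 and 9.42 FPKM (0 h), 0.774 and 0.908 FPKM (24 h), 0.900 and 0.708 FPKM (48 h) and 8.74 and 9.14 FPKM (72 h). The pattern was looked for after the values were seen. These 5 were called higher at 72 h. Adcy6 and Timd2 keep to their own gene and overlap another row. The opposite pattern was found in 1 row, a new locus on chromosome 19 that spans many genes, with 3.73 and 7.85 FPKM at 72 h, against 36.2 and 72.9 at 48 h.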
